A study of Homo sapiens with 6 samples.

Results

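The genes described here encode proteins that myeloid cells store in cytoplasmic granules and inhibitors that hold their proteases in check. They are LYZ, MPO, ELANE, PRTN3, AZU1, CTSG, CFD, SRGN, SLPI and SERPINB1. They were chosen by name, with earlier results of these data known, and all 10 were found among the 28307 genes of the count table. RNA was sequenced from OCI-AML3, an established leukaemia cell line of human myeloid blasts. It carries a mutant NPM1 gene whose product, NPM1c, is held in the cytoplasm. Cells received an siRNA against NPM1c (siNPM1c, 3 libraries) or a control siRNA (siControl, 3 libraries), each at 10 nM with a lipid transfection reagent, and total RNA was taken on day 3. All libraries came from this single line, carried the genotype label WT and shared 1 batch label. The labels do not say that the replicates of a group were separate cultures, so p-values cover the spread among these 6 libraries and no more, and that spread may be technical.

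Granule proteins are made at set steps of myeloid maturation. Promyelocytes synthesise the contents of azurophil granules, which include myeloperoxidase and lysozyme. They also include the neutrophil serine proteases elastase, proteinase 3 and cathepsin G with their inactive relative azurocidin. Later stages add the specific granule proteins such as lactoferrin, and lysozyme is stored in these later granules too. Serglycin, a proteoglycan, binds basic granule proteins in storage, while serpins in the cytosol and secreted inhibitors such as SLPI neutralise proteases that leave the granule.

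Libraries held 15338450 to 25190122 counts in the siNPM1c group and 15075235 to 23828944 in the siControl group. Ribosomal RNA genes took 69.4% to 71.1% of counts in siNPM1c libraries and 63.0% to 64.5% in siControl libraries. The targeted gene NPM1 had 293, 500 and 350 counts in siNPM1c libraries and 922, 1366 and 922 in siControl libraries. Its log2 fold change was -1.10. Counts are per gene, so RNA of the mutant NPM1 cannot be told apart from other NPM1 RNA. Counts were scaled by TMM, which takes most genes as level, and are given as CPM, counts relative to the scaled library size. With library sizes alone, in which ribosomal RNA counts as depth, the median gene moved to -0.48 log2, against -0.01 with TMM, so changes are given relative to the bulk of genes. Every rise named here that was smaller than this shift lay below 0 with library sizes alone. Of the marker genes of myeloid blasts, 8 of 10 passed the filter on low counts. The 10 summed to 424 to 431 CPM in siNPM1c libraries and 388 to 392 CPM in siControl libraries. Most of this was SPN, at 270 ± 2.34 CPM in siNPM1c libraries and 235 ± 4.07 CPM in siControl libraries (SD, n = 3). KIT and CD34 did not pass, with 6 and 69 counts over all libraries together. Lymphoid markers summed to 1.20 to 2.77 CPM and 1.41 to 2.45 CPM, with CD3D at 0 counts in every library. Erythroid and megakaryocyte markers summed to 13.8 to 15.6 CPM in siNPM1c libraries and 12.9 to 14.2 CPM in siControl libraries, nearly all of it EPOR, and HBB, PF4 and GP9 were at 0. Markers of other tissues summed to 49.4 to 57.3 CPM and 43.5 to 44.6 CPM, nearly all of it PECAM1, which myeloid cells also express.

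Most of the granule protein genes were higher in siNPM1c libraries, and they differed widely in how much. LYZ and SLPI rose 5.01-fold and 8.60-fold, PRTN3 rose 2.95-fold, and AZU1, ELANE, CTSG and CFD rose by 1.07 to 1.37-fold under TMM scaling, a direction that turned in these last 4 genes with library sizes alone (log2 fold changes of -0.01, -0.05, -0.15 and -0.37). MPO rose 2.52-fold at a level near the detection limit. SERPINB1 was 1.28-fold lower, and SRGN was level at 410 ± 14.2 CPM in siNPM1c libraries and 411 ± 10.4 CPM in siControl libraries (SD, n = 3). By edgeR's quasi-likelihood test at a Benjamini-Hochberg adjusted p under 0.05 over all 12938 genes tested, 8 of the 10 genes were higher and 1 lower, where 21.3% of all genes tested were higher and 21.4% lower, or 42.7% in either direction. Because the genes were chosen with results known, these counts describe them and are no independent evidence. Against a change of 1.5-fold, 4 of the 10 genes (LYZ, MPO, PRTN3 and SLPI) were higher, MPO only narrowly (adjusted p = 0.0421 by edgeR's glmTreat). Of all genes tested, 2.41% were higher and 0.997% lower against this change. With library sizes alone, 4 of the 10 genes were higher and 4 lower, where 3.9% of all genes were higher and 71.5% lower. For 9 of the 10 genes, and for 49.2% of all genes tested, the ranges of the 2 groups were separate under TMM scaling. The median log2 fold change was 0.44 over the 10 genes and -0.01 over all genes tested, and it was -0.03 for the 10 genes with library sizes alone. Of the 10 genes, 9 were over the filter's cutoff of 0.602 CPM in every library, while MPO was over it in 3 siNPM1c and 2 siControl libraries. The siControl libraries alone would not have passed MPO, and its calls above carry this limit. With no filter beyond 1 count, its log2 fold change was 1.31 (adjusted p = 8.13e-05 by edgeR's test).

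**Figure D1:**
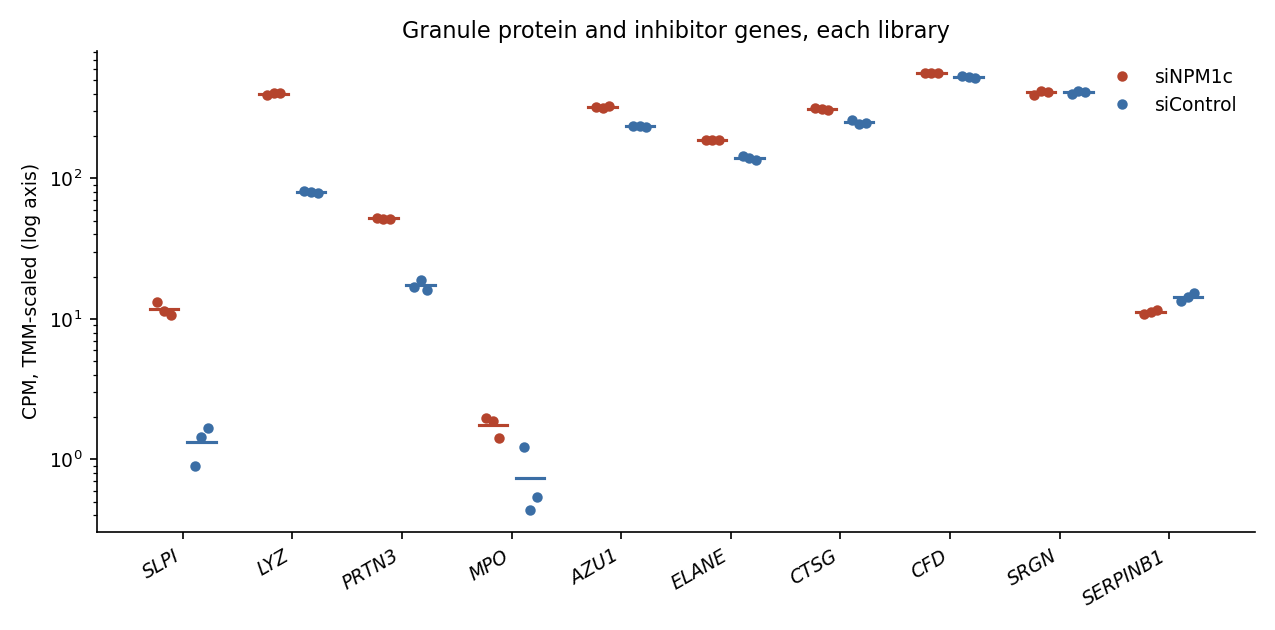
TMM-scaled CPM of each gene in each library on a log axis, with siNPM1c left of siControl (points, libraries; bars, means of 3). LYZ, SLPI and PRTN3 are separated most widely, SRGN overlaps, and SERPINB1 lies lower in siNPM1c libraries. The small rises of AZU1, ELANE, CTSG and CFD hold under TMM scaling and turn with library sizes alone.

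LYZ encodes lysozyme, the enzyme that cleaves bacterial cell wall peptidoglycan and is stored by granulocytes and secreted by monocytes and macrophages. Its level was 392, 406 and 406 CPM in the siNPM1c libraries and 80.9, 80.3 and 79.3 CPM in the siControl libraries. Every siNPM1c library was far above every siControl library, and the spread within a group was small, with a coefficient of variation of 2.08% for siNPM1c and 1.00% for siControl. The log2 fold change was 2.32 ± 0.03 (SE), with an adjusted p of 1.16e-172. LYZ ranked 18 of 12938 by fold change. LYZ (Entrez gene 4069) lies on chromosome 12 at 69348381 to 69354234 in GRCh38.p14. GENCODE 29 places an antisense transcript, AC020656.1, over it, and because no source says whether counting used strand, reads of both cannot be told apart. Of the markers of monocytes, 8 of 12 tested rose and 2 fell (median 0.25, and -0.22 with library sizes alone), with summed levels of 303 to 311 CPM in siNPM1c libraries and 221 to 235 CPM in siControl libraries. Over all genes tested, 21.3% rose and 21.4% fell. The 2 that fell were VCAN, by 0.72 (SE 0.05), and FCN1, by 0.67 (SE 0.22), and S100A8 had a log2 fold change of -0.00 ± 0.07, while CSF1R, the receptor of macrophage colony-stimulating factor, rose by 2.03; these were named after their values were seen. The part of these markers in the result was not tested. In bulk RNA, more cells of a kind and more RNA per cell cannot be told apart.

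MPO encodes myeloperoxidase, the heme enzyme that makes hypochlorous acid and defines the myeloid lineage in leukaemia diagnosis. Its raw counts were 26, 39 and 21 in siNPM1c libraries and 22, 12 and 10 in siControl libraries, or 1.956, 1.868 and 1.418 CPM against 1.22, 0.435 and 0.538 CPM. Under TMM scaling the groups did not overlap, although siControl replicate 1 came close to the lowest siNPM1c library. The raw counts overlapped, with 22 in siControl replicate 1 and 21 in siNPM1c replicate 3. The former library was the smaller, at 15075235 total counts against 17352206, so the ranges also overlap with library sizes alone. The log2 fold change was 1.33 ± 0.30 (SE), with an adjusted p of 6.05e-05 in the edgeR fit. It was 1.00 without siControl replicate 2 and 1.86 without siControl replicate 1.

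The 4 genes AZU1, PRTN3, ELANE and CFD lie head to tail in this order on the plus strand of chromosome 19, within 35.8 kb. AZU1 spans 827837 to 832018, PRTN3 840999 to 848175, ELANE 852303 to 856243 and CFD 859664 to 863641 in GRCh38.p14. All encode members of the chymotrypsin-like serine protease fold. PRTN3, the gene of proteinase 3, the main autoantigen of ANCA vasculitis, was the one with a large change. It stood at 52.6, 51.4 and 51.7 CPM in siNPM1c libraries and at 16.96, 19.02 and 16.2 CPM in siControl libraries, with no overlap. Its log2 fold change was 1.56 ± 0.06 (SE), with an adjusted p of 3.12e-71 by edgeR's test.

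The genes on both sides of PRTN3 changed less. AZU1, the gene of azurocidin, an antimicrobial protein of the family that has lost protease activity, had 322, 317 and 330 CPM in siNPM1c libraries and 235, 238 and 234 CPM in siControl libraries. ELANE, the gene of neutrophil elastase, had 186, 188 and 188 CPM in siNPM1c libraries and 145, 141 and 135 CPM in siControl libraries. For both genes each siNPM1c library was above each siControl library. Their log2 fold changes were close to each other, at 0.45 ± 0.02 for AZU1 and 0.42 ± 0.03 for ELANE (SE), with -0.01 and -0.05 with library sizes alone. CFD encodes complement factor D, the protease that starts the alternative complement pathway by cleaving factor B. It had 566, 562 and 567 CPM in siNPM1c libraries and 533, 524 and 521 CPM in siControl libraries, and the groups did not overlap. The log2 fold change of CFD was 0.10 ± 0.02 (SE), with an adjusted p of 1.63e-06 by edgeR's test. Its direction turned with library sizes alone, a decrease that also passed edgeR's test (-0.37, adjusted p = 8.87e-30). It also turned with a correction for GC content (-0.03, adjusted p = 0.149). CFD transcripts have a GC content of 68.6%.

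**Figure D2:**
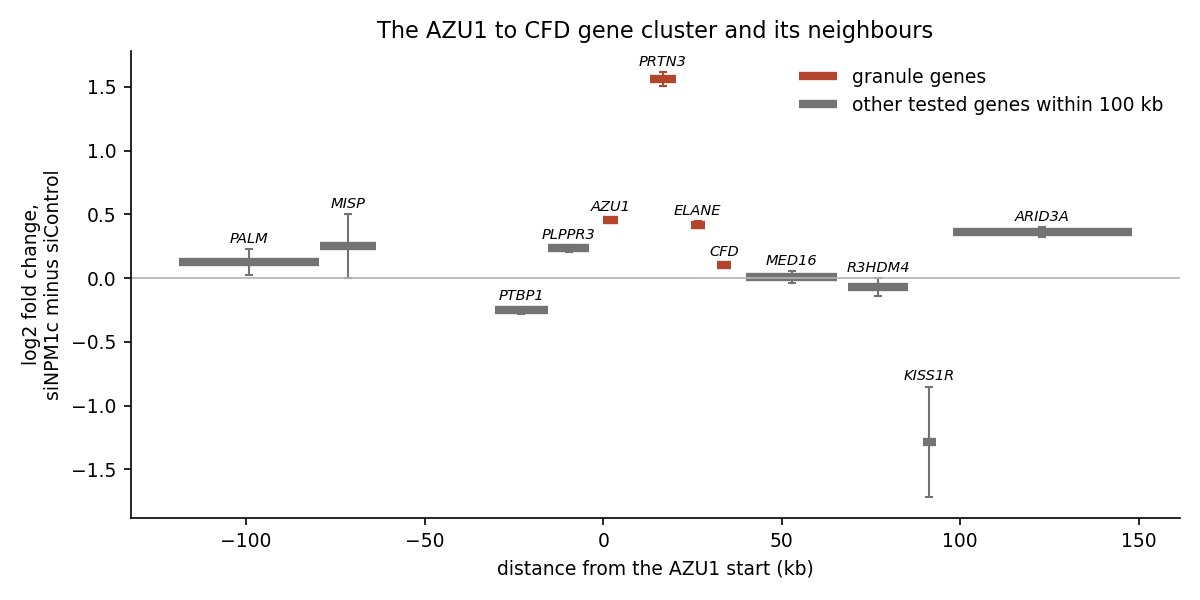
Log2 fold change (siNPM1c minus siControl, TMM scaling; error bars, SE) against distance from the AZU1 start in kb, with bar length as gene length. PRTN3 at 1.56 stands above AZU1 at 0.45, ELANE at 0.42 and CFD at 0.10, and the neighbouring genes scatter on both sides of 0. AZU1, ELANE and CFD lie below 0 with library sizes alone.

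A ratio of 2 genes within a library does not depend on how libraries are scaled. PRTN3 had 0.163, 0.162 and 0.157 counts per AZU1 count in siNPM1c libraries and 0.0720, 0.0800 and 0.0690 in siControl libraries. Per ELANE count, PRTN3 had 0.282, 0.273 and 0.276 counts in siNPM1c libraries and 0.117, 0.135 and 0.120 in siControl libraries. The log2 ratios of PRTN3 to AZU1, ELANE and CFD were therefore higher by 1.13, 1.16 and 1.48 in siNPM1c libraries. AZU1 and ELANE kept nearly the same proportion, with 1.73, 1.68 and 1.76 AZU1 counts per ELANE count in siNPM1c libraries and 1.63, 1.69 and 1.73 in siControl libraries, overlapping ranges that differed by 0.03 log2. Both rose relative to CFD, AZU1 by 0.35 and ELANE by 0.32 log2. The two-sided exact permutation test, with 3 libraries in each group, gave p = 0.1, the smallest it allows, for the 5 pairs whose groups did not overlap (adjusted p = 0.12 over 6 pairs) and p = 0.5 for AZU1 with ELANE.

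Other genes around the cluster were counted by position. Within 100 kb of its 4 genes, 8 further genes were tested, of which 2 rose and 2 fell (median log2 fold change 0.07), near the 21.3% higher and 21.4% lower of all genes tested. PLPPR3, the nearest tested gene before AZU1, rose by 0.23 ± 0.03 (SE), and ARID3A, a DNA-binding protein gene, by 0.36 ± 0.04. PTBP1, the gene of a splicing repressor, fell by 0.25 (SE 0.03), and KISS1R, the kisspeptin receptor gene, fell by 1.28 (SE 0.43) at under 1 CPM. MED16, the nearest tested gene beyond CFD, had a log2 fold change of 0.01 ± 0.05. PRTN3 thus rose more than each of its tested neighbours within this distance. The SE of KISS1R is too wide to rank the size of its fall against that rise.

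CTSG encodes cathepsin G, a serine protease of azurophil granules with chymotrypsin-like cleavage, and lies on chromosome 14 at 24573518 to 24576250, on the minus strand. It had 317, 310 and 308 CPM in siNPM1c libraries and 260, 245 and 247 CPM in siControl libraries. The groups did not overlap, and the log2 fold change was 0.32 ± 0.02 (SE), with an adjusted p of 4.80e-30 by edgeR's test. With library sizes alone the log2 fold change of CTSG was -0.15, a decrease that also passed the test (adjusted p = 1.38e-05).

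Sequences before the transcription start were at hand for 5 of the 10 genes (PRTN3, AZU1, CTSG, CFD and SERPINB1), from RefSeq on GRCh38.p14. The 150 bases before the start are shown for the 4 protease-family genes, because they compare a gene with a large rise to relatives with a small one. Read 5′ to 3′ on the gene's strand, they are chr19:840849-840998 for PRTN3, chr19:827687-827836 for AZU1, chr14:24576251-24576400 (minus strand) for CTSG and chr19:859514-859663 for CFD. Capitals mark matches, on either strand, to GAGGAA (the core bound by PU.1), TTGCNNAA (bound by C/EBP factors), AACTG (MYB), TGTGG (RUNX) and the TATA-like words TATAAG and ATAAAA.
PRTN3: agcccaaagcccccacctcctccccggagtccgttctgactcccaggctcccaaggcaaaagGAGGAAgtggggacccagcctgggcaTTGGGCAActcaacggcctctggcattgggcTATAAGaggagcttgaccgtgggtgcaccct
AZU1: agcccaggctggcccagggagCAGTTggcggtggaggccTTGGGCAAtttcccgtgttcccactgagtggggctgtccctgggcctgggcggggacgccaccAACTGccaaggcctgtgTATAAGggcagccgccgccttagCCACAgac
CTSG: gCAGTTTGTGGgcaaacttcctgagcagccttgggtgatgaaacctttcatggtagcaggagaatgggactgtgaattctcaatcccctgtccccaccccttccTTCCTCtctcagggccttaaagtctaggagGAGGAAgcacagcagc
CFD: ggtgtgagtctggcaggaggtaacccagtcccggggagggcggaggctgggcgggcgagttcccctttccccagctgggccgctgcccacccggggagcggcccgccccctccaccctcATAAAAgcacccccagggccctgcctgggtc
The PRTN3 window held GAGGAA 88 to 83 bases before the start, a C/EBP word at 62 to 55 bases and TATAAG at 31 to 26 bases. The AZU1 window held the same 8 letters of the C/EBP word, ttgggcaa, at 111 to 104 bases, 2 MYB words, 1 RUNX word 8 to 4 bases before the start and TATAAG at the same 31 to 26 bases. CTSG held 2 GAGGAA words, at 46 to 41 and 16 to 11 bases, and a MYB word that runs directly into a RUNX word. CFD held ATAAAA at 31 to 26 bases as its single match, and SERPINB1, not shown, held TATAAG at 30 to 25 bases as its single match. Among 35114 RefSeq windows of the same length, 14.8% held GAGGAA, 5.02% TTGCNNAA, 21.5% AACTG, 29.95% TGTGG, 3.13% TATAAG and 8.61% ATAAAA. These matches describe letters only.

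SRGN encodes serglycin, whose glycosaminoglycan chains hold granule proteases in storage, and lies on chromosome 10 at 69087603 to 69104811. It had 394, 421 and 414 CPM in siNPM1c libraries and 399, 419 and 415 CPM in siControl libraries. The groups overlapped throughout, and the log2 fold change was -0.00 ± 0.02 (SE), with an adjusted p of 0.934 by edgeR's test. SRGN transcripts have a low GC content of 37.7%, and with the GC correction the log2 fold change was 0.26 (adjusted p = 5.34e-31), while with library sizes alone it was -0.47 (adjusted p = 1.52e-46). The side of 0 on which SRGN falls thus depended on the scaling.

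The inhibitors moved in opposite directions. SLPI, the secretory leukocyte protease inhibitor, blocks elastase and cathepsin G at mucosal surfaces and is also made by myeloid cells. Its raw counts were 174, 239 and 159 in siNPM1c libraries and 16, 40 and 31 in siControl libraries, or 13.1, 11.4 and 10.7 CPM against 0.890, 1.45 and 1.67 CPM. Every siNPM1c library was several-fold above every siControl library. The log2 fold change was 3.10 ± 0.15 (SE), with an adjusted p of 2.74e-51 by edgeR's test, and SLPI ranked 5 of 12938 by fold change. SERPINB1, a cytosolic serpin that traps elastase, proteinase 3 and cathepsin G, had 10.8, 11.2 and 11.5 CPM in siNPM1c libraries and 13.3, 14.3 and 15.2 CPM in siControl libraries. The groups did not overlap, and SERPINB1 fell by 0.35 on the log2 scale (SE 0.09), with an adjusted p of 0.000317 by edgeR's test. SLPI lies on chromosome 20 at 45252239 to 45254564 and SERPINB1 on chromosome 6 at 2832332 to 2841863. The single tested gene within 100 kb of SLPI was SDC4, a heparan sulfate proteoglycan gene of the cell surface, which rose by 1.07 ± 0.12 log2 (SE). SERPINB9, the inhibitor of granzyme B and a paralogue beside SERPINB1, fell by 0.48 (SE 0.10). Near the other genes, TSPOAP1 by MPO rose by 0.67 ± 0.02 and CPSF6 by LYZ fell by 0.45 (SE 0.10). Over all 10 genes, 4 of 23 tested genes within 100 kb rose and 4 fell, near the 21.3% and 21.4% of all genes tested.

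**Figure D3:**
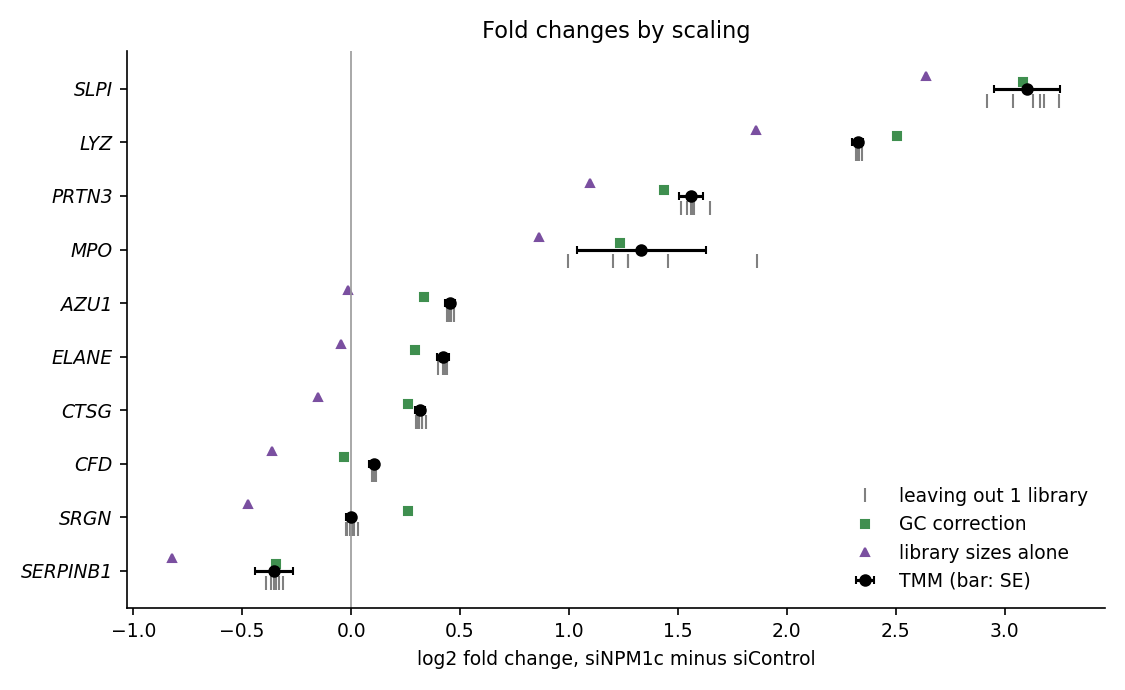
Log2 fold change (siNPM1c minus siControl) of each gene with TMM scaling (circle; bar, SE), with a GC correction (square), with library sizes alone (triangle) and with each library left out (ticks). SLPI, LYZ, PRTN3 and MPO stay above 0 and SERPINB1 below 0 in all of these, while AZU1, ELANE, CTSG, CFD and SRGN fall below 0 with library sizes alone.

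Levels of different genes can be compared only per length, so CPM was divided by the kilobases of exon in GENCODE 29. In siNPM1c libraries CFD was highest at 462 ± 2.08 CPM per kb (SD, n = 3), followed by CTSG at 352 ± 4.88 and SRGN at 339 ± 11.8, whose ranges over libraries overlapped. LYZ came next at 228 ± 4.73 CPM per kb, ahead of ELANE at 182 ± 0.923 and AZU1 at 181 ± 3.64, which overlapped. PRTN3 at 45.3 ± 0.531, SLPI at 19.7 ± 2.02, SERPINB1 at 4.26 ± 0.124 and MPO at 0.544 ± 0.0897 CPM per kb completed the order. In siControl libraries the order per kb was CFD at 430 ± 4.85, SRGN at 340 ± 8.61, CTSG at 283 ± 9.21, ELANE at 136 ± 4.81 and AZU1 at 132 ± 1.05, of which only the last pair overlapped. LYZ followed at 45.5 ± 0.457, then PRTN3 at 15.2 ± 1.29, SERPINB1 at 5.45 ± 0.351, SLPI at 2.24 ± 0.674 and MPO at 0.228 ± 0.133 CPM per kb. LYZ thereby stood above ELANE and AZU1 in siNPM1c libraries and below both in siControl libraries, and SLPI and SERPINB1 also changed places.

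Together the 10 genes took 0.878% to 0.897% of protein-coding counts in siNPM1c libraries and 0.686% to 0.693% in siControl libraries. In percentage points LYZ changed most, and it held 17.6% ± 0.238 of the 10 genes' counts in siNPM1c libraries and 4.78% ± 0.0192 in siControl libraries (SD, n = 3). PRTN3 held 2.28% ± 0.0431 and 1.04% ± 0.0846. SLPI, whose share changed by a larger factor than that of LYZ, held 0.517% ± 0.0571 in siNPM1c libraries and 0.0797% ± 0.0244 in siControl libraries. CFD held 24.8% ± 0.235 in siNPM1c libraries and 31.4% ± 0.225 in siControl libraries, and SRGN 18.0% ± 0.508 and 24.5% ± 0.711. AZU1, at 14.2% ± 0.271 and 14.1% ± 0.0851, and ELANE, at 8.24% ± 0.0373 and 8.35% ± 0.245, overlapped between groups. These shares need no scaling between libraries, but a share can fall only because another gene of the 10 rose.

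**Figure D4:**
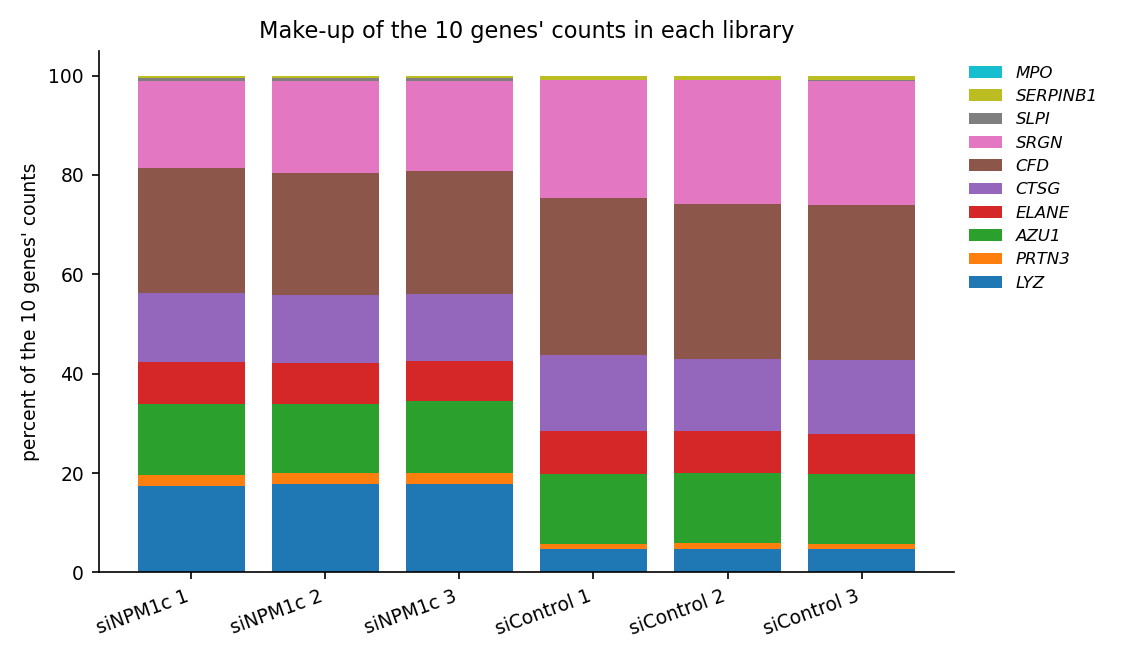
Share of each gene in the summed raw counts of the 10 genes, in percent, for each library, siNPM1c on the left. LYZ is the lowest segment, at 17.4% to 17.8% in siNPM1c libraries and 4.76% to 4.80% in siControl libraries, and CFD and SRGN take smaller shares in siNPM1c libraries.

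The genes whose profile over the 6 libraries lay nearest to that of LYZ, among the 7392 genes averaging 5 CPM or more, were ISG15, IFITM1 and ISG20, at Euclidean distances of 0.0928, 0.212 and 0.217 in gene-centred log2(CPM + 0.5). Their log2 fold changes were 2.28, 2.52 and 2.44. For PRTN3 the nearest were SLFN5, IFIT1 and IFITM3, at distances of 0.0858, 0.163 and 0.179 and with log2 fold changes of 1.67, 1.59 and 1.67. With 2 groups of 3 libraries, genes with a fold change of similar size lie near each other by construction.

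Counts over the related gene lists stand against 21.3% higher and 21.4% lower among all genes tested, and against 3.9% higher and 71.5% lower with library sizes alone. Other granule contents were counted over 44 genes, of which 22 passed the filter. Of these, 9 rose and 3 fell (median log2 fold change 0.14), and 3 rose and 15 fell with library sizes alone. CHI3L1, a chitinase-like protein of specific granules, had 248 ± 3.98 CPM in siNPM1c libraries and 147 ± 1.39 CPM in siControl libraries. CTSB, a lysosomal cysteine protease, rose by 0.57 ± 0.03 log2 (SE) and GAA, the lysosomal glucosidase, by 0.39 ± 0.02. CYBB, the catalytic subunit of the phagocyte oxidase, fell by 0.70 (SE 0.06), MMP9, the gelatinase of tertiary granules, by 0.41 (SE 0.07), and CTSC, which activates the serine proteases by removing their terminal dipeptide, by 0.35 (SE 0.07). Some other genes of azurophil, specific or later granules, picked here after their values were seen, had few counts or none. CHI3L1, MMP9 and MMP25 (log2 fold change 0.03 ± 0.11) of the same list were well above the filter. Over all 6 libraries together BPI had 15 counts, LTF 6, LCN2 3, CAMP 1, MMP8 3 and OLFM4 2. DEFA1, DEFA3 and DEFA4 were at 0. For scale, 3 counts in a library correspond to 0.109 to 0.226 CPM. How reads that match several genes were counted is not given, so the 0 of DEFA1, DEFA3 and DEFA4 need not mean absence.

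Of 32 other protease inhibitor genes 20 were tested, 5 rose and 9 fell, with a median of -0.17, and 2 rose and 17 fell with library sizes alone. The number that rose, and both numbers with library sizes alone, were near the shares over all genes. CST3, the cysteine protease inhibitor cystatin C, rose by 0.30 ± 0.03 log2 (SE), with -0.16 with library sizes alone. SERPINB8 rose by 0.51 ± 0.06 and SERPINB10, a serpin of haematopoietic cells, by 1.38 ± 0.16. TIMP3, an inhibitor of matrix metalloproteases, had 544 ± 7.49 CPM in siNPM1c libraries and 669 ± 5.01 CPM in siControl libraries, and SERPINH1, a collagen chaperone rather than an inhibitor, fell by 0.26 (SE 0.05).

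A list of genes linked to granule formation and release, or to neutrophil disorders, split evenly. It holds genes with other roles, such as CXCR4, G6PC3, SLC37A4 and SRP54, which fell, and HAX1, which was not called. All 29 were tested, 11 rose and 11 fell, with a median of -0.04, and 1 rose and 23 fell with library sizes alone. STX11, a syntaxin needed for cytotoxic granule release, had 7.08 ± 0.248 CPM in siNPM1c libraries and 3.30 ± 0.258 CPM in siControl libraries. AP3D1, a subunit of the adaptor complex that sorts proteins to granules, rose by 0.22 ± 0.03 log2 (SE) and TCIRG1, a proton pump subunit, by 0.15 ± 0.02. LYST, mutated in Chediak-Higashi syndrome with its giant granules, had 225 ± 3.65 CPM in siNPM1c libraries and 333 ± 8.86 CPM in siControl libraries. CXCR4, the marrow homing receptor, fell by 0.51 (SE 0.06) and VPS13B, mutated in Cohen syndrome with neutropenia, by 0.40 (SE 0.06). Genes that build glycosaminoglycan chains were also counted, and not all of them are particular to the chains of serglycin. The list includes heparan sulfate genes such as NDST1 and EXTL3. Of these genes 21 of 23 were tested, 4 rose and 6 fell, with a median of 0.02, and 18 fell with library sizes alone. The sulfotransferase gene CHST12 rose by 0.55 ± 0.05, NDST1 by 0.31 ± 0.04 and CHSY1 by 0.22 ± 0.04, while CHPF fell by 0.36 (SE 0.05), CHST11 by 0.29 (SE 0.04) and CHST13 by 0.44 (SE 0.08).

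Of 24 regulators linked to granule gene transcription 21 were tested, 12 rose and 2 fell, with a median of 0.29. With library sizes alone 6 rose and 10 fell. These counts do not tell activators from repressors. The largest rise of the list was that of PAX5, named after its value was seen, at 2.27 ± 0.26 log2 (SE). PAX5 had 2.99 ± 0.229 CPM in siNPM1c libraries and 0.644 ± 0.223 CPM in siControl libraries. IRF8, a factor of monocytic differentiation, had 218 ± 6.06 CPM in siNPM1c libraries and 132 ± 3.81 CPM in siControl libraries. SPI1, the gene of PU.1, had 124 ± 1.802 CPM in siNPM1c libraries and 79.6 ± 1.65 CPM in siControl libraries, and PML rose by 0.63 ± 0.03 log2 (SE). TRIB2, which promotes degradation of C/EBP-alpha, fell by 0.60 (SE 0.07) and MYC by 0.13 (SE 0.05). TRIB1, the paralogue of TRIB2 with the same known role, named after its value was seen, rose by 0.86 ± 0.07, at 24.6 ± 0.588 CPM in siNPM1c libraries and 13.7 ± 0.989 CPM in siControl libraries. CEBPA, MYB and CEBPE, factors with known sites at granule genes, were named after their values were seen. CEBPA rose by 0.26 ± 0.02 log2, a direction that turned with library sizes alone (-0.21), MYB had a log2 fold change of 0.02 ± 0.05, and CEBPE, the factor of late granule genes, had 12 counts over all libraries and was not tested.

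Heme synthesis and protein folding, on which myeloperoxidase maturation depends, were counted over 14 genes, all tested. Of these 4 rose and 1 fell, with a median of 0.01, and all 14 fell with library sizes alone. The number that rose was near the share over all genes, 21.3%. CALR, the gene of calreticulin, which chaperones the myeloperoxidase precursor, rose by 0.34 ± 0.03 log2 (SE), HSPA5 by 0.30 ± 0.03 and ALAD by 0.25 ± 0.06, all 3 below 0 with library sizes alone.

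**Figure D5:**
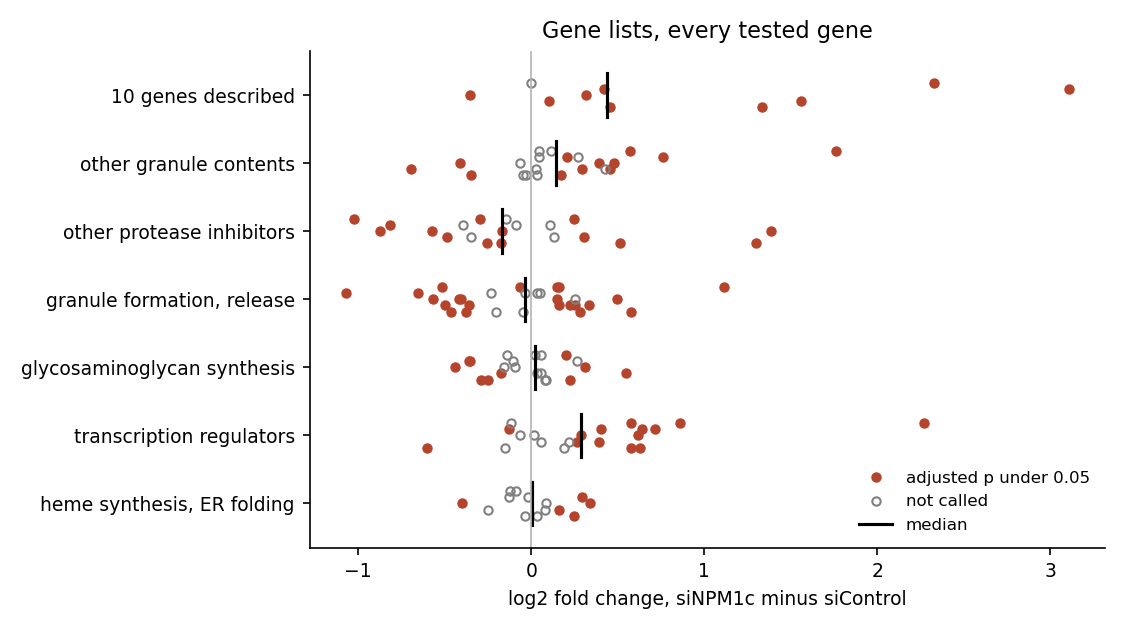
Log2 fold change (siNPM1c minus siControl, TMM scaling) of every tested gene of the 10 genes described and of the 6 related lists; filled points passed an adjusted p under 0.05, open points did not, and bars are medians. The median is 0.44 for the 10 genes, 0.29 for the regulators, 0.14 for other granule contents and -0.17 for other protease inhibitors; with library sizes alone each of the 7 medians lies below 0.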

How the data were processed

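The authors deposited raw counts per gene, whole numbers keyed by Entrez gene ID, for 6 libraries. Tools listed, per the submitters' processing notes and without roles, are STAR 2.7.5a, cutadapt 2.6, CASAVA 1.8 and DESeq2 1.34.0, with mm10 and hg38 as builds; the counting tool, annotation and strand setting are not given in the sources used here. Symbols came from NCBI RefSeq (GRCh38.p14) for 28261 of 28307 genes. With edgeR 4.0.16 (R 4.3.3), genes were filtered by filterByExpr (minimum count 10, minimum total 15), scaled by TMM and tested by glmQLFit (robust) and glmQLFTest, two-sided, with Benjamini-Hochberg adjustment over 12938 genes. SE is the absolute log2 fold change over the square root of F. The script was tested on simulated counts. GC content and exon lengths came from GENCODE 29, and 97.1% of tested genes had a GC value. Within groups, pairs of libraries differed by a chi-square per degree of freedom of 1.46 to 2.36, so none was a copy.

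The members and lists were chosen with earlier results of these data known. Named were the 10 genes whatever their p; up to 3 called genes per direction and list with the smallest p; called genes within 100 kb; the 3 genes nearest to LYZ and PRTN3; and NPM1. Some genes that this rule names are not reported here. Alternatives were other scalings and filters, DESeq2 1.42.0, limma-voom (limma 3.58.1), non-robust fitting, a replicate block, gene classes left out, a GC correction (lowess, span 0.3), a 1.5-fold threshold and leaving out each library. Intervals of counting error were not used; precision is that of 3 libraries per group.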

Additional observations from a re-analysis of the deposited data

How the results depend on the processing

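LYZ, PRTN3 and SLPI kept direction and call in all 19 alternatives, at log2 fold changes of 1.86 to 2.50, 1.10 to 1.65 and 2.64 to 3.25, and MPO in all 18 that tested it (0.86 to 1.86; the filter of 5 CPM removed it). With library sizes alone AZU1 was -0.0144, ELANE -0.0482, CTSG -0.15, CFD -0.37 and SRGN -0.47. CTSG, CFD and SRGN then passed the test as lower. Members called were 4 higher and 4 lower, and of all genes 505 were higher and 9253 lower. With the GC correction CFD was -0.0311 and SRGN 0.26, and SRGN was also above 0 at 0.0101 when genes that code for no protein were dropped, at 0.00303 under DESeq2 size factors and in 3 of the leave-one-out fits (-0.022 to 0.0301). The cause was not tested. Against a 1.5-fold change, AZU1 (0.45), ELANE (0.42), CTSG (0.32), CFD (0.10) and SERPINB1 (-0.35) no longer passed, since that test asks for more than any change. There, 4 members were called higher and 0 lower by edgeR's glmTreat, also 0 lower at an unadjusted p under 0.05, and of all genes 312 were higher and 129 lower. Leaving out any library kept 8 members higher and 1 lower, and 2435 to 2675 and 2196 to 2579 of all genes. Related lists moved by over 1.5 times in 37 of 228 counts, most of them with library sizes alone or the 1.5-fold test. Same-numbered libraries did not deviate together (correlations of 0.019, -0.0027 and -0.0041), and a replicate block gave 8 members higher and 1 lower, the same as without it. Depth limits MPO, with 10 to 39 counts per library, and SLPI in siControl libraries, with 16 to 40.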
